A study of Homo sapiens with 6 samples.

Results

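The genes described here are 3 members of the Neuralized family (NEURL3, NEURL1B and NEURL4), 3 Notch receptors (NOTCH1, NOTCH2 and NOTCH3), 2 Notch ligands (JAG1 and JAG2) and 2 transcription factors that Notch induces (HES1 and HEY1). They were selected on NEURL3, whose count was lower in the PRDM16 group of this same comparison. The other 9 were added as its relatives and as genes of the Notch pathway. The 10 genes took up 11 of the 38648 genes and gene copies listed, since NEURL4 is listed at 2 places. RNA sequencing was carried out on HK-2 cells, a human proximal tubular line immortalized with papillomavirus genes, 7 days after X-irradiation with 8 Gy. The 3 control libraries (IR+NC-LV) came from irradiated cells carrying a negative control lentivirus, and the 3 PRDM16 libraries (IR+PR-LV) from irradiated cells carrying a lentivirus that overexpresses PRDM16, a transcription factor with a PR domain. Every library therefore came from irradiated, transduced cells selected with puromycin, and no unirradiated library was analysed here. The labels number the cells of each group from 1 to 3 without saying that they were separate cultures, so the spread between libraries may be technical.

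Notch receptors are cell surface proteins that are cut when a ligand on a neighbouring cell pulls on them, first by ADAM10 and then by the gamma-secretase complex. The freed intracellular part joins RBPJ and a Mastermind protein on DNA and switches on target genes, of which HES1 and HEY1 are the best known. A ligand can pull only if it is taken up into the cell that carries it, and this uptake needs ubiquitin placed on the ligand by a ligase of the Neuralized or the Mind bomb family. In the kidney, Notch signalling directs the formation of proximal nephron segments, and its activity in mature tubules is associated with fibrosis.

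The total count ranged from 13407074 to 28540041 per library, so that 3 counts, taken as the limit of detection, amounted to 0.105 to 0.224 CPM (counts scaled to the library total). PRDM16 itself had 2, 0 and 1 counts in the control libraries (replicates 1 to 3) and 14, 10 and 8 in the PRDM16 libraries. The latter amounted to 0.833, 0.357 and 0.434 CPM, and PRDM16 was not abundant enough to test. Of the 8 proximal tubule markers examined, 6 were abundant enough to test, but LRP2 had 0 or 1 counts in every library and ANPEP 1 to 7. Of those tested, CUBN, SLC34A1 and SLC5A2 stayed between 0.380 and 1.65 CPM, while GGT1 stood between 50.5 and 70.6 CPM. Between these lay AQP1, at 2.02 to 2.87 CPM, and MME, at 7.97 to 10.1 CPM. Among the 5 epithelial markers, the keratin KRT8 stood between 515 and 677 CPM, but CDH1 only at 0.379 to 0.868 CPM. The summed level of 5 endothelial markers was 0.383 to 0.587 TPM (a level scaled for gene length as well) in the control libraries and 0.331 to 0.454 in the PRDM16 libraries. That of 5 fibroblast markers was 10.05 to 15.3 TPM in the control libraries and 11.0 to 13.7 TPM in the PRDM16 libraries. Among these, the collagen gene COL1A1 stood between 16.9 and 22.5 CPM, and its groups overlapped. The summed level of 5 immune markers was 182 to 201 TPM in the control libraries and 155 to 170 TPM in the PRDM16 libraries, nearly all of it CD68, a lysosomal protein, whose groups overlapped (88.3 to 106 against 81.8 to 90.5 CPM), while the leukocyte gene PTPRC had 0 to 3 counts. The part of these levels in the results was not tested. IR+NC-LV replicate 3, the library with the fewest counts, was the highest or the lowest of its group for 10 of the 10 genes, and IR+PR-LV replicate 1 for 9. Over all tested features the same held for 80.7% and 81.7%. In bulk RNA, fewer cells of a type and less RNA per cell cannot be told apart.

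The promoters of NEURL3 and HES1 are shown because these were the members whose libraries were lower in all of the PRDM16 group than in any of the control group. The sequences are RefSeq's for GRCh38.p14 and run 5′ to 3′ on the coding strand, up to the base before the outermost exon base of the deposited files. The NEURL3 stretch is chr2:96508158-96508359 on the minus strand (202 bases), and the HES1 stretch is chr3:194135898-194136147 on the plus strand (250 bases), with a match to the RBPJ motif in capitals.
NEURL3: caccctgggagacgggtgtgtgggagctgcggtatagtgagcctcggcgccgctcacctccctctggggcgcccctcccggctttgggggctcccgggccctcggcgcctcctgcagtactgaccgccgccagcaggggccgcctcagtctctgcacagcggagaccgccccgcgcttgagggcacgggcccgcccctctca
HES1: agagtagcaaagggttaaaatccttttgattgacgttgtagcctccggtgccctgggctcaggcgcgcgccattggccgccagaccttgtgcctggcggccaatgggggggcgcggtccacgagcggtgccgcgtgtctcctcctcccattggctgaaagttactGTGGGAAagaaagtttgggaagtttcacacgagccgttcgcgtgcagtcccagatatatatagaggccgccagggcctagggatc

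The RBPJ motif searched was GTGGGAA, on either strand, in windows of 300 bases that run from 250 before a RefSeq start to 50 after it. It was found in 6.2% of the 35116 windows of the RefSeq table, and 9 of the 10 members had a window there (10 windows, since NEURL3 has 2 starts), HEY1 being the exception. Among these only HES1 held the motif, at position -85 from its start. The N-box CACNAG, which HES proteins bind, was found in 38.0% of all windows, and for 42.9% of the genes in at least 1 window. HES1, which represses its own promoter, held it at 4 places, at positions -165, -132, -58 and 15 from the start. NOTCH1 held 2 overlapping matches, NEURL1B, NOTCH2 and NOTCH3 held 1 each, and the windows of NEURL3, NEURL4, JAG1 and JAG2 held none. Such a match says that the letters occur in the window and nothing about binding.

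NEURL3 encodes a RING ubiquitin ligase with a Neuralized homology repeat, first described in lung as inducible by inflammation. The gene lies on chromosome 2 (96497643 to 96508157 of GRCh38, minus strand, 2241 exon bases). It had 182, 193 and 173 counts in IR+NC-LV replicates 1 to 3, and 74, 114 and 71 counts in IR+PR-LV replicates 1 to 3. Scaled for depth, the values were 10.8, 9.15 and 12.4 CPM against 4.40, 4.07 and 3.85 CPM. Every IR+PR-LV library lay below every IR+NC-LV library, and the lowest control library was still above the highest PRDM16 library by more than either group's SD. The mean was 10.8 ± 1.64 CPM in the control libraries and 4.11 ± 0.276 CPM in the PRDM16 libraries (n = 3 each, ± SD), which is 2.62-fold lower, with -1.39 ± 0.15 (SE) as log2 fold change. Since this value chose the genes, it and its place past the edgeR threshold are a description, and no p is given for them. NEURL3 ranked 79 of 15340 tested features by the size of its fold change. Leaving out 1 library at a time gave values from -1.50 when IR+NC-LV replicate 2 was absent to -1.28 when IR+NC-LV replicate 3 was absent. NEURL3 did not keep its place past that threshold in the fits without IR+NC-LV replicate 1 (-1.39), IR+PR-LV replicate 1 (-1.44), replicate 2 (-1.38) or replicate 3 (-1.35).

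**Figure D1:**
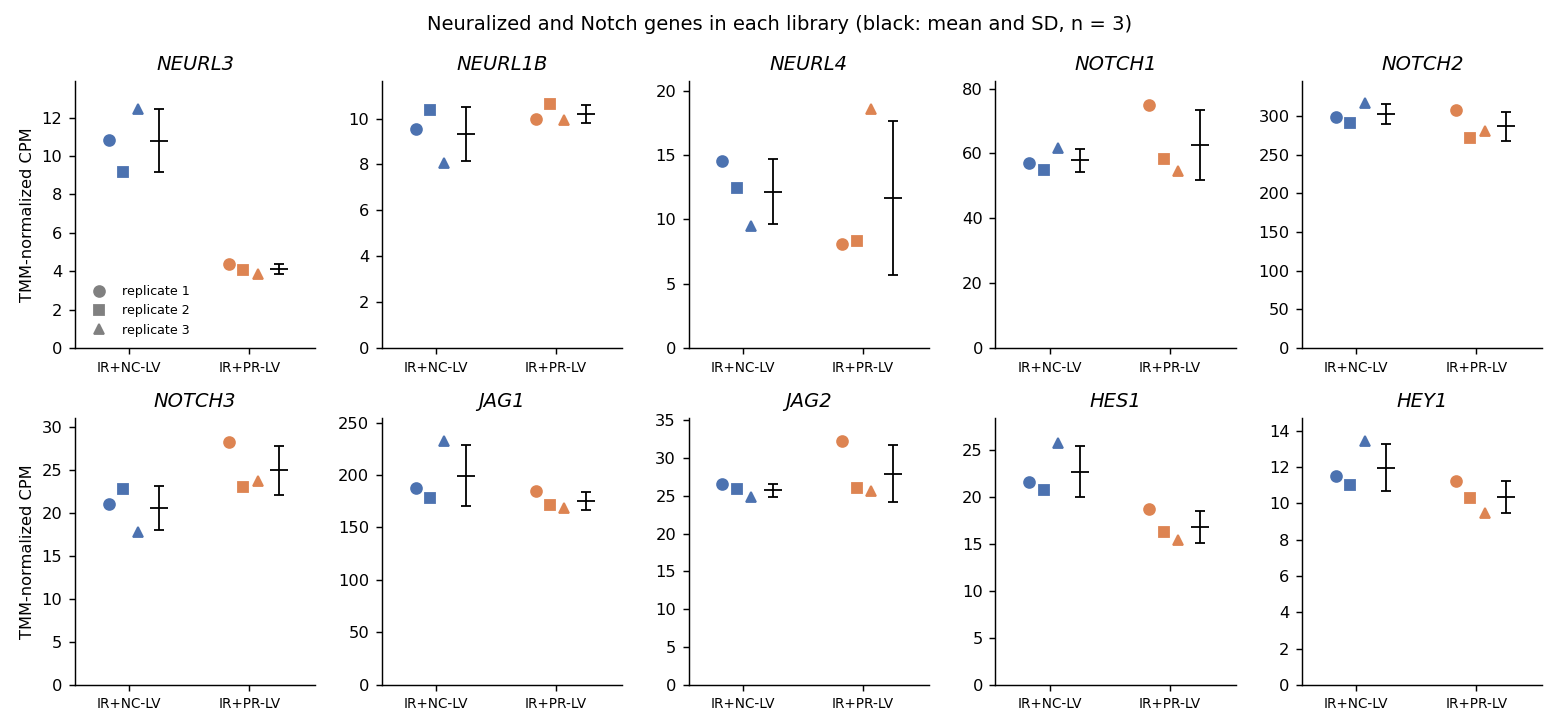
CPM of the 10 genes in each library, with 1 panel per gene, the libraries of each group as points (1 symbol per replicate number) and the mean and SD in black (n = 3). NEURL3 stood at 9.15 to 12.4 CPM in the control libraries and 3.85 to 4.40 CPM in the PRDM16 libraries, and HES1 was the other gene whose IR+PR-LV libraries all lay below the IR+NC-LV libraries.

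NEURL1B is a RING ligase that acts on Notch ligands. It lies on chromosome 5 (172641263 to 172691540, plus strand). Its values were 9.52, 10.4 and 8.05 CPM in the control libraries and 9.99, 10.6 and 9.93 CPM in the PRDM16 libraries. The ranges overlapped, and the log2 fold change was 0.12 ± 0.13 (SE), or 0.04 without IR+NC-LV replicate 3.

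NEURL4 carries Neuralized repeats but no RING domain, and its protein is found at centrosomes. The gene on chromosome 17 (7315628 to 7329335, minus strand) had at most 2 counts in a library. A copy on a scaffold outside the assembled chromosomes (bases 73993 to 87700 of that scaffold) held 1351 of the 1355 NEURL4 counts (99.7%), and the values given are those of this copy. They were 14.5, 12.5 and 9.48 CPM in the control libraries and 8.09, 8.36 and 18.6 CPM in the PRDM16 libraries. IR+PR-LV replicate 3 was the highest of all 6 libraries and replicates 1 and 2 of the same group the lowest. The log2 fold change was -0.07 (standard error 0.31), and it was -0.57 when IR+PR-LV replicate 3 was absent but 0.13 when IR+PR-LV replicate 2 was absent. The pooled SD of NEURL4 within groups was 0.528 on the log2 CPM scale, against a median of 0.137 over all tested features.

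The levels of the Neuralized and Mind bomb genes were also set against their sum, in TPM, which divides by gene length, whether or not each member is known to act on Notch ligands. NEURL3 made up 22.5%, 19.6% and 24.1% of the summed TPM of NEURL1, NEURL1B, NEURL2, NEURL3, NEURL4, MIB1 and MIB2 in the IR+NC-LV libraries. In the IR+PR-LV libraries its share was 10.4%, 10.01% and 8.67%. MIB1, the broadly expressed Mind bomb ligase, had the largest share in both groups, 46.0 ± 2.06% in the control libraries and 54.4 ± 2.32% in the PRDM16 libraries (± SD, n = 3 each). MIB1 was 145 ± 11.2 CPM in the control libraries and 149 ± 5.69 CPM in the PRDM16 libraries, so that its larger share came with a log2 fold change of 0.04. These shares contain the value that chose the genes and are a description.

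**Figure D2:**
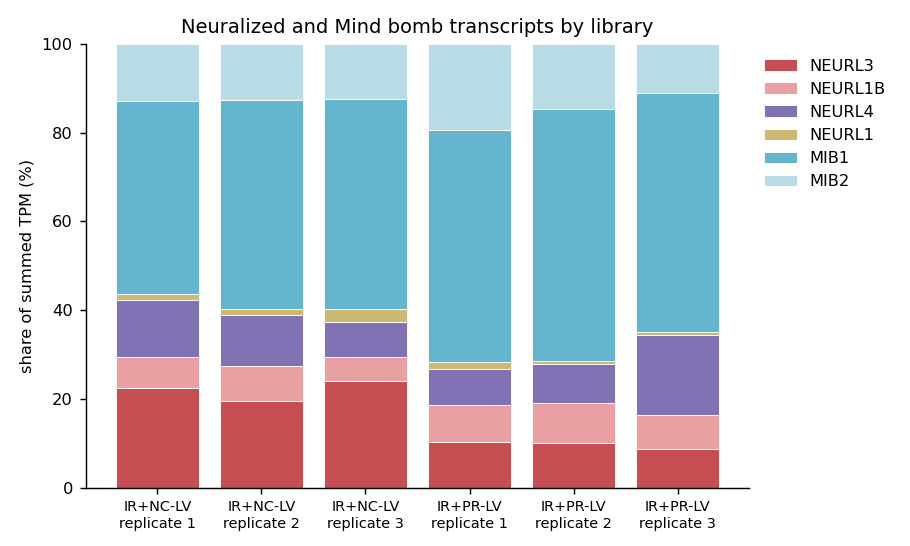
Share of each Neuralized and Mind bomb gene in the summed TPM of these genes (percent, y axis) for each of the 6 libraries (x axis). NEURL3 held 19.6% to 24.1% in the IR+NC-LV libraries and 8.67% to 10.4% in the IR+PR-LV libraries, and MIB1 held the largest part in every library.

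The receptors differed from each other in level far more than between groups. NOTCH2, on chromosome 1 (119911553 to 120069662, minus strand), was the most abundant, at 298, 291 and 317 CPM in the control libraries and 307, 272 and 280 CPM in the PRDM16 libraries. These ranges overlapped, and its log2 fold change was -0.08 (standard error 0.067), the smallest standard error among the members. NOTCH1, on chromosome 9 (136494433 to 136546048, minus strand), had 57.0, 55.0 and 61.8 CPM in the control libraries and 75.0, 58.2 and 54.7 CPM in the PRDM16 libraries. IR+PR-LV replicate 1 stood above the other 5 libraries, and the log2 fold change of 0.11 (standard error 0.12) became -0.03 without it. NOTCH3, on chromosome 19 (15159038 to 15200995, minus strand), is a receptor best known from vascular smooth muscle. It had 21.1, 22.8 and 17.8 CPM in the control libraries and 28.2, 23.0 and 23.7 CPM in the PRDM16 libraries. All 3 IR+PR-LV libraries lay above the IR+NC-LV libraries, by as little as 23.0 against 22.8 CPM, at a log2 fold change of 0.27 ± 0.12 (SE) that ranged from 0.18 to 0.35 when 1 library was left out.

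Of the summed TPM of the receptors, NOTCH2 held 75.3 ± 0.629% in the control libraries and 72.1 ± 1.85% in the PRDM16 libraries. NOTCH1 held 17.8 ± 0.444% and 19.3 ± 1.69%, and NOTCH3 6.98 ± 1.09% and 8.52 ± 0.221% (± SD, n = 3 each). NOTCH4, a receptor of endothelium, had 7 counts in all 6 libraries together, summed over the 7 places at which it is listed. Part of the NOTCH2 sequence is repeated in the NOTCH2NL genes: of its stretches of 100 bases in GENCODE 29, 98.2% occurred in no other gene. The share was 93.5% for JAG2, 81.7% for NEURL4 and 100% for the other 7 genes, so that reads of these 3 could in part be assigned elsewhere. Only genes of different names were compared, so the 81.7% leaves out the second listed place of NEURL4. Both places have 5207 exon bases, and how reads that match both were assigned is not given.

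JAG1 and JAG2 are transmembrane ligands of the Jagged type. JAG1, on chromosome 20 (10637684 to 10673999, minus strand), had 188, 178 and 232 CPM in the control libraries and 185, 172 and 169 CPM in the PRDM16 libraries. The groups overlapped, and IR+NC-LV replicate 3 was the highest library, without which the log2 fold change moved from -0.19 (standard error 0.098) to -0.06. JAG2, on chromosome 14 (105140981 to 105168776, minus strand), had 26.5, 25.9 and 24.8 CPM in the control libraries and 32.3, 26.0 and 25.6 CPM in the PRDM16 libraries. Again the groups overlapped, and the log2 fold change of 0.12 (standard error 0.10) became 0.0026 without IR+PR-LV replicate 1. JAG1 held 83.6 ± 2.71% of the summed ligand TPM in the control libraries and 81.6 ± 1.09% in the PRDM16 libraries, and JAG2 11.2 ± 1.50% and 13.3 ± 0.957%.

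HES1 is a basic helix-loop-helix repressor and a direct target of the RBPJ complex. It lies on chromosome 3 (194136148 to 194138732, plus strand) and had 362, 438 and 359 counts in the control libraries and 315, 457 and 285 counts in the PRDM16 libraries. Scaled for depth, these were 21.5, 20.8 and 25.8 CPM against 18.7, 16.3 and 15.5 CPM. All IR+PR-LV libraries lay below the IR+NC-LV libraries, and the means were 22.7 ± 2.70 and 16.8 ± 1.69 CPM (± SD, n = 3 each), which is 1.35-fold lower at a log2 fold change of -0.43 ± 0.11 (SE). With 1 library omitted it was lowest, at -0.51, when IR+PR-LV replicate 1 was absent, and nearest to 0, at -0.33, when IR+NC-LV replicate 3 was absent. HEY1, a related repressor on chromosome 8 (79764010 to 79767767, minus strand), had 11.5, 11.0 and 13.4 CPM in the control libraries and 11.2, 10.3 and 9.50 CPM in the PRDM16 libraries. The HEY1 groups overlapped between 11.0 and 11.2 CPM, and the log2 fold change was -0.21 ± 0.12 (SE).

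Across the members, 1 of 10 was past the edgeR threshold (adjusted p under 0.05), and this was NEURL3, which chose them. Over all 15340 tested features 10 were past it, or 0.0652%. Of the other 9 members 0 were past it with edgeR and 0 with DESeq2. With edgeR 2 of the 9 (HES1 and NOTCH3) had an unadjusted p under 0.05, where 10.5% of all tested features did. The groups did not overlap for NEURL3, which chose the members, and for 2 of the other 9 (HES1 and NOTCH3), against 17.0% of all tested features. The log2 fold change was above 0 for 4 members and below 0 for 6, NEURL3 among these 6. Its median over the 10 was -0.07, beside 0.0044 over all tested features.

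**Figure D3:**
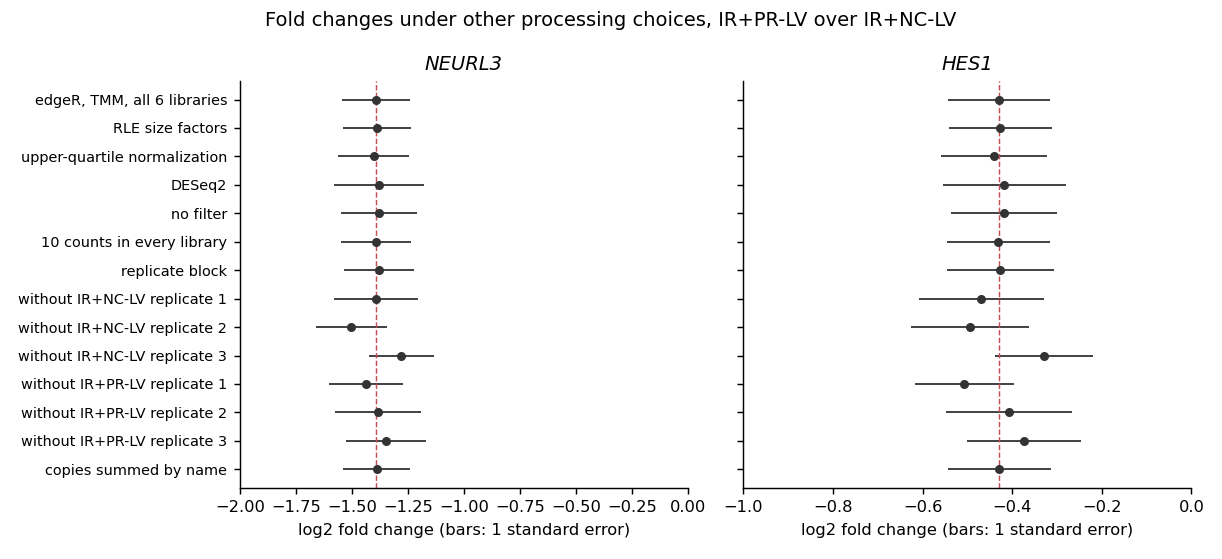
Log2 fold change (x axis, bars of 1 standard error) of NEURL3 and HES1, with 1 panel each, in the edgeR fit of all 6 libraries (dashed line) and under each other processing choice (y axis). Across the fits that leave out 1 library NEURL3 ran from -1.50 to -1.28 and HES1 from -0.51 to -0.33.

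The level of each gene per length was compared in TPM within each library, whereas the genes were chosen by the difference of NEURL3 between groups. As the TPM of NEURL3 rests on the counts that chose it, its place in the order is a description, and no p is given for it. JAG1 had the highest mean over the 6 libraries, at 103.4 ± 16.8 TPM, followed by NOTCH2 at 81.7 ± 7.00, HES1 at 41.2 ± 9.23 and NOTCH1 at 20.6 ± 2.72 (SD, n = 6). The lower levels were JAG2 at 15.1 ± 1.41 TPM, HEY1 at 14.7 ± 2.24, NEURL3 at 11.0 ± 5.91, NOTCH3 at 8.55 ± 1.11, NEURL4 at 7.48 ± 2.56 and NEURL1B at 4.95 ± 0.322. The median tested feature had 16.3 TPM, so that 4 members lay above it.

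Of the 9 neighbouring pairs in this order, 4 kept it in 6 of 6 libraries. JAG1 was 1.26-fold above NOTCH2, NOTCH2 2.02-fold above HES1, HES1 1.97-fold above NOTCH1 and NOTCH1 1.36-fold above JAG2. For each of these the exact sign-flip permutation test, two-sided over the 6 libraries, gave p = 0.03125, which is the smallest it can give. Benjamini-Hochberg adjustment over the 9 pairs, those with NEURL3 included, gave 0.0703, so that 0 pairs passed 0.05 after adjustment. With 4 of 9 pairs at the smallest p, none of them could pass, so no conclusion about the order is drawn from this 0. JAG2 and HEY1 (exact sign-flip p = 0.719), NOTCH3 and NEURL4 (exact p = 0.375) and NEURL4 and NEURL1B (exact p = 0.125) each kept the order in 4 of 6 libraries. The pairs were set by the mean levels of the same 6 libraries, so these p and those above are a description. Whether the levels of a pair are equal was not tested. NEURL3 took rank 5 of the 10 in the control libraries, at 16.1 ± 3.16 TPM, and rank 9 in the PRDM16 libraries, at 5.91 ± 0.366 TPM (± SD, n = 3 each).

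**Figure D4:**
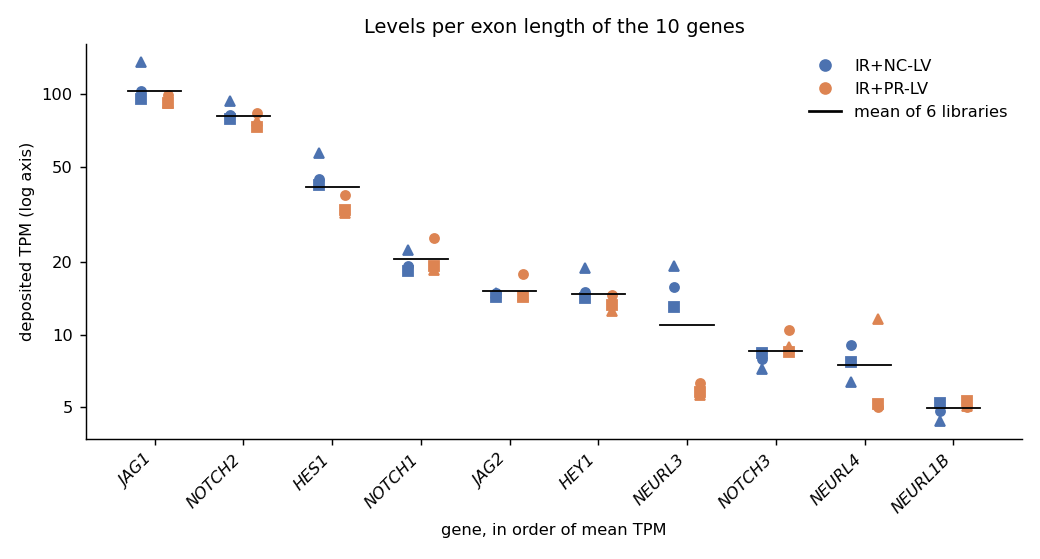
Level of each gene in TPM (log axis) in the 6 libraries, in the order of the mean (black line), with the 2 groups as points of different colour. JAG1 (mean 103.4 TPM) stands at the top and NEURL1B (4.95 TPM) at the bottom, and the NEURL3 points fall into separate ranges by group.

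The other genes of the pathway were taken as 9 lists by role, with 62 genes, of which 61 were listed in the files and 48 were abundant enough to test. With edgeR 0 of these 48 were past the threshold and with DESeq2 0, and 6 had an unadjusted p under 0.05 with edgeR (12.5%, beside 10.5% of all tested features). Of the 48, 22 had a log2 fold change above 0 and 26 below 0, with a median of -0.0064 and a median size of 0.0779, where all tested features had 0.0044 and 0.104. The groups did not overlap for 8 of them (16.7%, beside 17.0% of all tested features).

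Among the other Neuralized genes, NEURL2 had no count and NEURL1 had 1.96, 2.13 and 5.10 CPM in the control libraries and 2.08, 0.714 and 0.977 CPM in the PRDM16 libraries. The NEURL1 groups overlapped through IR+PR-LV replicate 1, and its log2 fold change of -1.31 (standard error 0.47) became -0.77 without IR+NC-LV replicate 3. The 5 genes of ligand uptake included MIB1 and the epsins EPN1 (log2 fold change 0.17, and -0.05 without IR+PR-LV replicate 1) and EPN2 (0.15, standard error 0.093). Groups that did not overlap were seen for 1 of the 5, EPN2, beside 17.0% of all tested features. Of the other ligands, DLL3 had 4.40 ± 0.814 CPM in the control libraries and 4.07 ± 0.516 CPM in the PRDM16 libraries, DLK2 had 5.02 ± 0.122 and 5.16 ± 0.529 CPM, and DLL4 stayed at 9 counts or fewer in a library (± SD, n = 3 each).

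The NOTCH2-derived genes, which can share reads with NOTCH2, had log2 fold changes of -0.50 for NOTCH2NLC (standard error 0.16), -0.37 for NOTCH2NLB (standard error 0.15) and -0.19 for NOTCH2NLA. NOTCH2NLC had 17.5, 15.7 and 25.0 CPM in the control libraries and 12.8, 14.4 and 13.7 CPM in the PRDM16 libraries, groups that did not overlap, and without IR+NC-LV replicate 3 its value was -0.28. The sugar transferases that modify the receptors were led in level by POFUT1, which adds O-fucose and had a log2 fold change of 0.17, and LFNG and RFNG, which extend it, had -0.07 and -0.0020. Of the 8 tested genes of receptor cleavage, which are proteases and gamma-secretase subunits, 4 were above 0 and 4 below 0. ADAM10, which makes the first cut after ligand binding, had 0.13 and nicastrin (NCSTN), a gamma-secretase subunit, -0.12.

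RBPJ, the DNA-binding subunit of the nuclear complex, had 114 ± 1.89 CPM in the control libraries and 115 ± 7.25 CPM in the PRDM16 libraries (± SD, n = 3 each), and the 10 tested nuclear genes had -0.0010 as their median log2 fold change. Of the 11 tested genes of receptor turnover, 9 lay below 0, among them NEDD4L, a HECT ubiquitin ligase better known for the epithelial sodium channel, at -0.24 (standard error 0.055). For 4 of the 9 (ITCH, NEDD4, DTX4 and AAK1) the sign turned when 1 library was left out. The 4 tested target genes other than HES1 and HEY1 had log2 fold changes above 0, from 0.08 to 0.29, but those of HES4, HES6 and HES7 went below 0 (-0.17, -0.19 and -0.05) without IR+PR-LV replicate 1, and those of HES4 and HES6 also without 1 of the control libraries. NRARP, a feedback inhibitor that the RBPJ complex induces, had 9.94, 9.44 and 7.83 CPM in the control libraries and 12.5, 11.1 and 9.66 CPM in the PRDM16 libraries, ranges that overlapped. HES4 had 15.1 ± 2.09 and 16.0 ± 4.64 CPM.

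**Figure D5:**
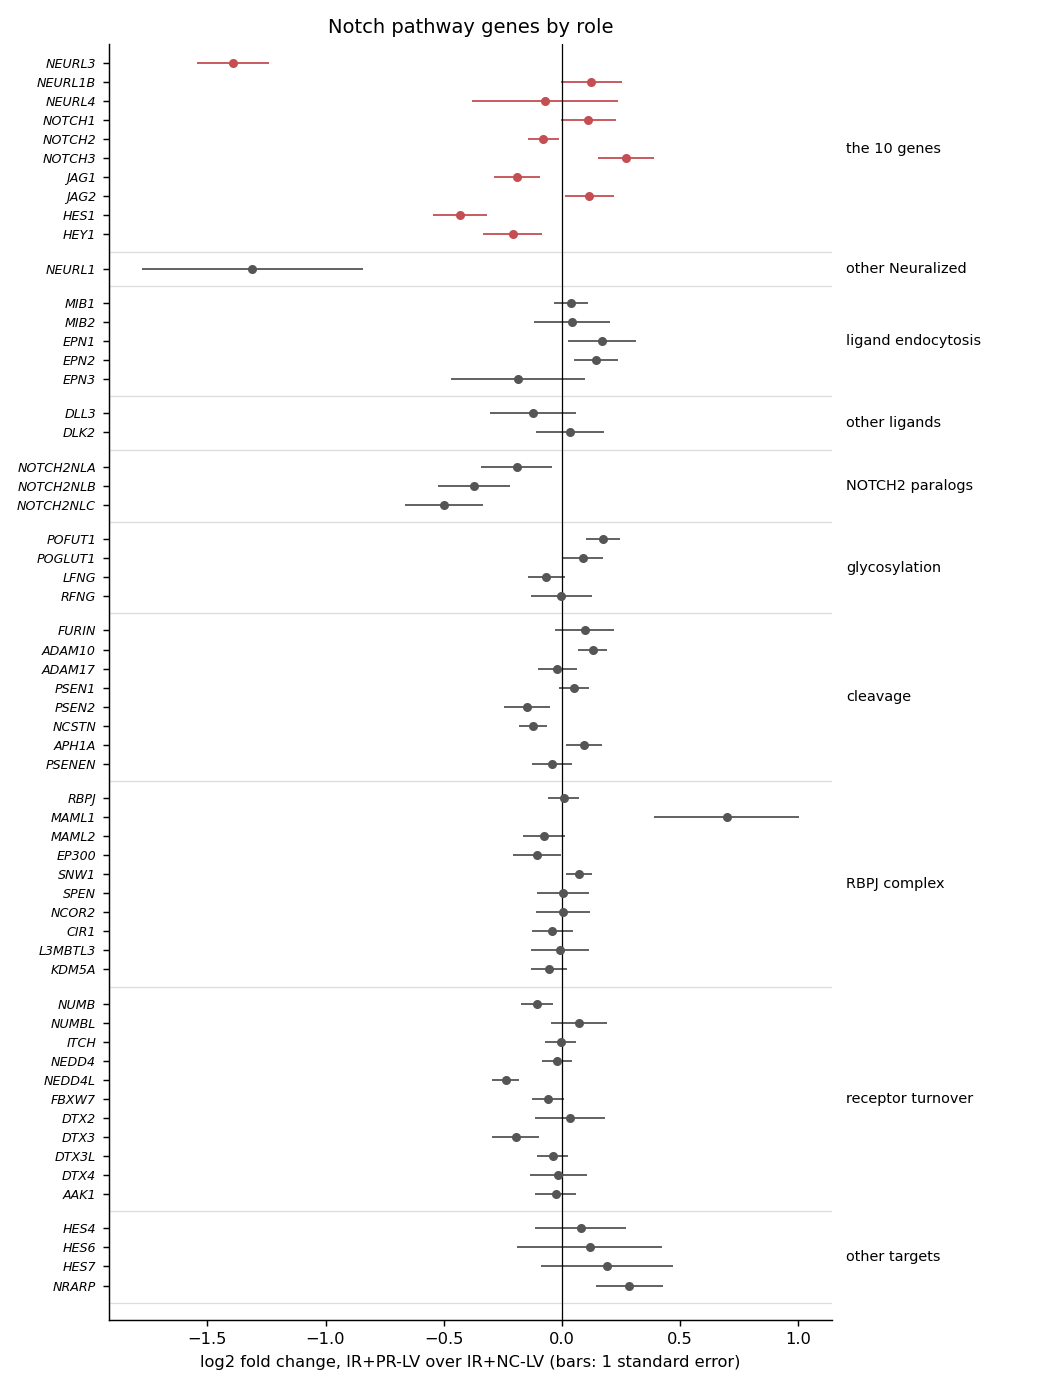
Log2 fold change (x axis, bars of 1 standard error) of the 10 members in red and the 48 tested genes of the other pathway lists in grey, grouped by role (y axis). NEURL3 at -1.39 and NEURL1 at -1.31 lay lowest, and the median over the 48 was -0.0064. MAML1 lay highest, at 0.70 for its chromosome 5 row, but had 0.25 with its copies summed.

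The pattern of NEURL3 over the 6 libraries was compared with that of the 13955 tested features of at least 1 CPM, by Pearson correlation of log2 CPM. As NEURL3 splits the libraries by group, high values mark features that do the same, and they are given without a test. The closest were FLVCR2 (r = 0.998), TNFAIP3 (r = 0.997), LOC107984475 (r = 0.997), NEDD4L (r = 0.995) and VAMP2 (r = 0.995). FLVCR2 is a choline transporter, TNFAIP3 is a ubiquitin-editing inhibitor of NF-kB signalling and VAMP2 is a vesicle fusion protein. TNFAIP3 had 188, 172 and 215 CPM in the control libraries and 119, 112 and 109 CPM in the PRDM16 libraries. A value of at least 0.99 was reached by 12 features and of at least 0.95 by 147. Among the members the value was 0.93 for HES1, 0.80 for HEY1, 0.73 for JAG1 and 0.64 for NOTCH2. It was 0.07 for NEURL4, -0.19 for NOTCH1, -0.40 for JAG2, -0.65 for NEURL1B and -0.76 for NOTCH3.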

How the data were processed

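Bulk RNA-seq libraries of irradiated HK-2 cells were compared between IR+NC-LV and IR+PR-LV (3 libraries each, grouped by their labels). Messenger RNA was captured with oligo(dT) and read as paired ends of 150 bp by the authors. The deposited files give, for each library and gene, the raw count of reads and the TPM that the authors computed from it, and the TPM followed from the counts and exon lengths. The submitters' processing notes name CASAVA, featureCounts 2.0.1, DESeq2 1.16.1 and hg38. The aligner and the strand setting are not given in the sources used here.

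The counts were tested with edgeR 4.0.16 in R 4.3.3 (filterByExpr by group, TMM normalization, glmQLFit and glmQLFTest without covariates), over 15340 of 38648 features, with Benjamini-Hochberg adjustment at 0.05. The filter had a minimum count of 10, which was not required in every library, and a minimum total of 15. CPM values use TMM library sizes, with factors of 0.981 to 1.04. The F statistic gave the standard errors. The procedure was tested on simulated data. Levels were compared as log2(TPM + 0.01). NEURL4 and the pathway genes listed at several places were each represented by the copy with the most counts, unless stated otherwise. Limits of detection cover counting error only, since the reads carry no molecular identifiers, while SDs and standard errors include the spread between libraries.

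The members and lists were chosen with earlier results of these data known. Named genes are the 10 members, the 3 genes of highest mean TPM in each pathway list, the 5 features most like NEURL3 and PRDM16, and genes named beyond these (NOTCH4, ADAM10, NEDD4L as a pathway gene, the genes of each count) were singled out after their values were seen. Motifs were searched in the RefSeq promoter table (GRCh38.p14). Alternatives were RLE and upper-quartile scaling, DESeq2 1.42.0, no filter, a filter of 10 counts required everywhere, a block for replicate numbers, omission of each library, summed copies of a gene and, for levels, CPM per kilobase and pseudocounts of 0.1 and 1.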

Additional observations from a re-analysis of the deposited data

How the results depend on the processing

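Over all features, 10 were past the threshold with edgeR. The count was 168 with DESeq2, 342 without the filter on low counts, 3 with the replicate block, and 1 to 28 when 1 library was left out (28 without IR+NC-LV replicate 2, and 1 without replicate 1 of the control or replicate 3 of the PRDM16 group). The cause was not tested. Of the members, 1 was past it, 0 with the replicate block and 0 to 1 with 1 library left out. NEURL3 had -1.38 with the replicate block, no longer past the threshold, and -1.50 to -1.28 with 1 library left out. Same-numbered libraries correlated at -0.009, 0.051 and 0.071 in their deviations from the group means and 3 of 6 libraries correlated best with their own number, so the numbers were not taken as pairs. NEURL4 ranged from -0.57 to 0.13 with 1 library left out (0.07 without control replicate 1, 0.12 without PRDM16 replicate 1) and NOTCH1 from -0.03 (-0.033 without PRDM16 replicate 1) to 0.20. Of the pathway genes, 2 were past the threshold without the filter, NOTCH2NLC (-0.49, adjusted p = 0.0466 from edgeR) and NEURL1 (-1.30, adjusted p = 0.00831 from edgeR), and 0 under the filter. The order of levels kept 4 pairs in all 6 libraries under every alternative for it. Depth limits genes under 0.105 to 0.224 CPM, which include NOTCH4, NEURL2 and the chromosome 17 row of NEURL4.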

Other observations

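Of the pathway genes, 5 are listed at several places, and 2 of these, MAML1 and DTX2, were abundant enough to test. Their counts divide differently between libraries. MAML1, a Mastermind coactivator of the RBPJ complex, had 65, 64 and 55 counts in IR+NC-LV and 53, 168 and 153 in IR+PR-LV at its chromosome 5 row, and 62, 102 and 82 against 79, 137 and 51 at a copy on a scaffold. Its log2 fold change was 0.70 at chromosome 5 and 0.25 (standard error 0.17) with the copies summed. DTX2, a Deltex ubiquitin ligase, had a log2 fold change of 0.04 at chromosome 7 and of -0.21 (standard error 0.13) with its copies summed. The scaffold copy of DTX2 had 37, 37 and 23 counts in IR+NC-LV and 2, 31 and 5 in IR+PR-LV.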
